A study of Homo sapiens with 9 samples.

Results

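The comparison described here is that of HK1 cells given an siRNA against E2F1 with HK1 cells given a non-targeting control siRNA. HK1 is an established cell line from a human nasopharyngeal carcinoma, and both siRNAs were used at 100 nM for 48 h. The RNA sequencing comprised 9 libraries, of which 6 enter here, 3 per siRNA, chosen by their labels; the other 3, from cells given an E2F3 siRNA, are outside the comparison. Levels are FPKM, fragments per kilobase of transcript scaled to the size of the library. Of 58381 Ensembl gene identifiers listed per library, 13307 reached 1 FPKM in at least 3 of the 6 libraries and were tested. Changes are given as E2F1 siRNA minus control siRNA on the log2(FPKM + 1) scale, which understates the change of genes with low levels, each with its standard error (SE). A gene was called higher or lower where the limma adjusted p (Benjamini-Hochberg over the 13307 genes, two-sided) was under 0.05.

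E2F1 is a transcription factor that binds the retinoblastoma protein in resting cells and, when released, drives genes needed to enter S phase and copy DNA. Its targets also include genes of mitosis, DNA repair and cell death. An siRNA is a short duplex whose guide strand directs the RNA-induced silencing complex to a matching transcript, and guide strands are also known to lower transcripts that pair only with their first bases, called the seed. Neither the sequence of the E2F1 siRNA nor whether it was 1 duplex or a pool is known here.

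The depth of the libraries relative to control replicate 1, read from the steps in low FPKM values, was 0.845 to 1.203 in the control group and 0.888 to 1.129 in the E2F1 siRNA group. The number of reads behind these values is unknown here, so no counting interval is given. Across genes, which are not independent replicates, Pearson's r of log2 levels was 0.9891 to 0.9905 between control libraries, 0.9898 to 0.9908 between E2F1 siRNA libraries and 0.9712 to 0.9723 between groups. Transcripts of the mitochondrial genome held 16.5 ± 0.443% of all FPKM with control siRNA and 15.0 ± 0.686% with E2F1 siRNA (SD, n = 3 each). The 6 markers fixed for the epithelial and squamous identity of HK1 (KRT5, KRT14, KRT17, TP63, EPCAM and CDH1) were present in every library, with KRT5 at 265 to 360 FPKM and TP63 at 29.8 to 48.1 FPKM. Of 18 markers of other cell types, 12 stayed under 1 FPKM in every library. The summed level of all 18 was 33.2 to 69.6 FPKM in the control libraries and 30.7 to 35.2 FPKM in the E2F1 siRNA libraries. CD68, a macrophage marker, made up much of it, at 16.79 to 19.55 FPKM over the 6 libraries. The highest sum belonged to control replicate 3, where the haemoglobin transcripts HBA1 and HBB stood at 18.5 and 19.9 FPKM. Nothing in the labels says that replicates were separate cultures, so each p-value rests on the spread among these 6 libraries, which may be technical. In bulk RNA, fewer cells of a kind and less RNA per cell cannot be told apart.

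E2F1 itself was lower in each E2F1 siRNA library. It stood at 19.9, 19.5 and 20.2 FPKM with control siRNA and 7.17, 7.95 and 7.33 FPKM with E2F1 siRNA, and the groups were far apart (chr20:33675683-33686404 in GRCh38, minus strand, log2 -1.3, SE 0.06, adjusted p = 1.06e-05). Beyond it, 5193 genes (39%) were called, 2858 of them higher (21.5% of the genes tested) and 2335 lower (17.5%). Most changes were small, and the median over all genes was 0.03. Changes of at least 1 on the log2 scale (277 genes, 2.08%) were more often falls than rises, with 194 genes lower (1.46%) and 83 higher (0.624%). In 6828 genes (51.3%) the 3 libraries of each group did not overlap.

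**Figure D1:**
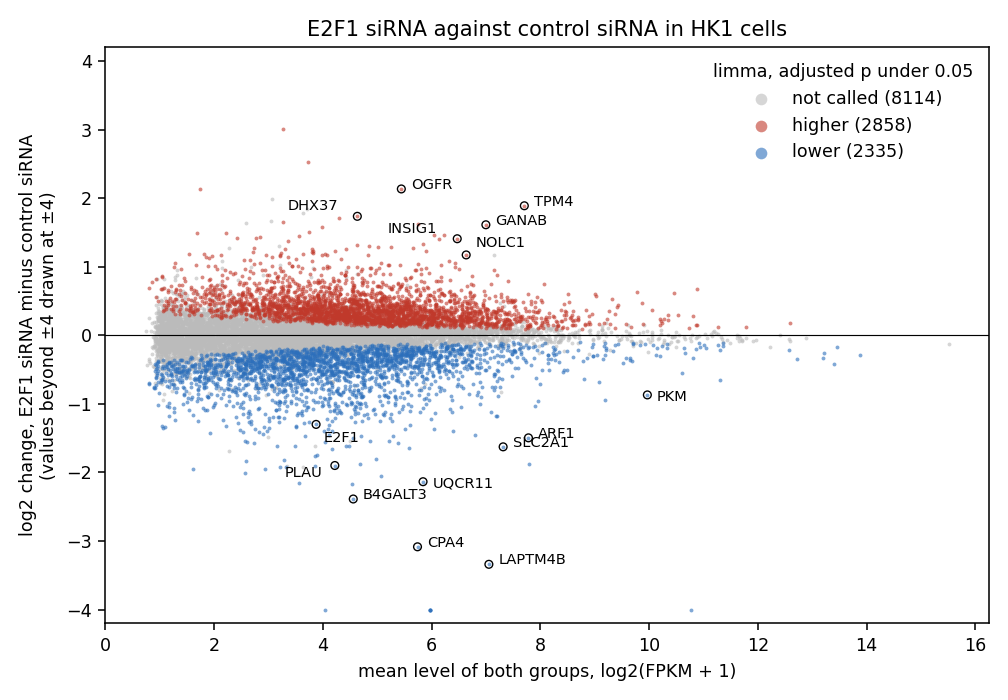
Change of each of the 13307 genes tested (vertical axis, log2 of E2F1 siRNA minus control siRNA) against its mean level over both groups (horizontal axis, log2(FPKM + 1)). Red points are the 2858 genes called higher and blue points the 2335 called lower; the deepest falls reach further from 0 than the rises, and of the labelled genes LAPTM4B lies lowest, at -3.34, and OGFR highest, at 2.13. Changes beyond 4 in size are drawn at the edge of the axis, and unlabelled points above OGFR belong to clone names or genes whose groups overlap.

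The deepest falls were in genes of many different functions, and several were among the well expressed transcripts of these cells. LAPTM4B, a transmembrane protein of lysosomes and endosomes, stood at 243, 240.04 and 239 FPKM with control siRNA and 23.6, 22.7 and 22.4 FPKM with E2F1 siRNA, a drop seen to the same depth in all 3 libraries (log2 -3.34, SE 0.04, adjusted p = 1.29e-08). CPA4, a secreted carboxypeptidase, stood at 97.6, 103 and 83.8 FPKM with control siRNA and 11.5, 10.1 and 9.29 FPKM with E2F1 siRNA (log2 -3.08, SE 0.10, adjusted p = 2.20e-06). B4GALT3, a galactosyltransferase of the Golgi, stood at 37.6, 36.2 and 41.9 FPKM with control siRNA and 6.91, 6.46 and 6.3 FPKM with E2F1 siRNA (log2 -2.39, SE 0.07, adjusted p = 2.19e-06). The libraries of the groups were well separated in all 3 genes. ZMPSTE24, the protease that matures prelamin A, fell by 2.17, and UQCR11, a subunit of respiratory complex III, fell by 2.13, standing at 92.1, 88.98 and 96.2 FPKM with control siRNA and 20.5, 22.4 and 18.1 FPKM with E2F1 siRNA. FZD6, a WNT receptor, kept a narrow spread within each group, at 52.1, 53.98 and 52.8 FPKM with control siRNA and 11.98, 12.02 and 11.97 FPKM with E2F1 siRNA (log2 -2.06). SNN fell by 2.16 on the log2 scale, standing at 18.1, 18.2 and 18.9 FPKM with control siRNA and 3.11, 3.26 and 3.65 FPKM with E2F1 siRNA. HMOX1, the haem-degrading oxygenase, stood at 14.2, 13.01 and 13.5 FPKM with control siRNA and 2.84, 3.33 and 2.39 FPKM with E2F1 siRNA (log2 -1.93).

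The largest rises were smaller in size and again mixed in function. The ranking of rises and falls kept genes past the test with at least 5 FPKM in 1 group and libraries that do not overlap between groups, and left out clone names and pseudogenes. TPM4, a tropomyosin that coats actin filaments, stood at 85.9, 90.6 and 86.7 FPKM with control siRNA and 324, 324 and 336 FPKM with E2F1 siRNA (log2 1.89, SE 0.04, adjusted p = 2.54e-07). OGFR, the opioid growth factor receptor, stood at 16.7, 12.5 and 16.6 FPKM with control siRNA and 68.2, 72.5 and 68.7 FPKM with E2F1 siRNA (log2 2.13, SE 0.10, adjusted p = 1.06e-05). GANAB, the catalytic subunit of glucosidase II that trims N-glycans in the endoplasmic reticulum, stood at 63.1, 61.8 and 61.1 FPKM with control siRNA and 187, 196 and 192 FPKM with E2F1 siRNA (log2 1.61, SE 0.04, adjusted p = 3.96e-07). In all 3 each library with E2F1 siRNA lay above each control library. DHX37, an RNA helicase of small ribosomal subunit assembly, rose by 1.74, standing at 10.8, 10.7 and 9.98 FPKM with control siRNA and 36.3, 38.1 and 37.2 FPKM with E2F1 siRNA. Among the 10 largest rises were also PDXP (log2 1.65), a phosphatase of pyridoxal phosphate; EMC6 (1.63), a subunit of the membrane insertion complex of the endoplasmic reticulum; the lysine methyltransferase SETD7 (1.5); the zinc finger gene ZNF845 (1.49); and G3BP2 (1.46), a stress granule protein.

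**Figure D2:**
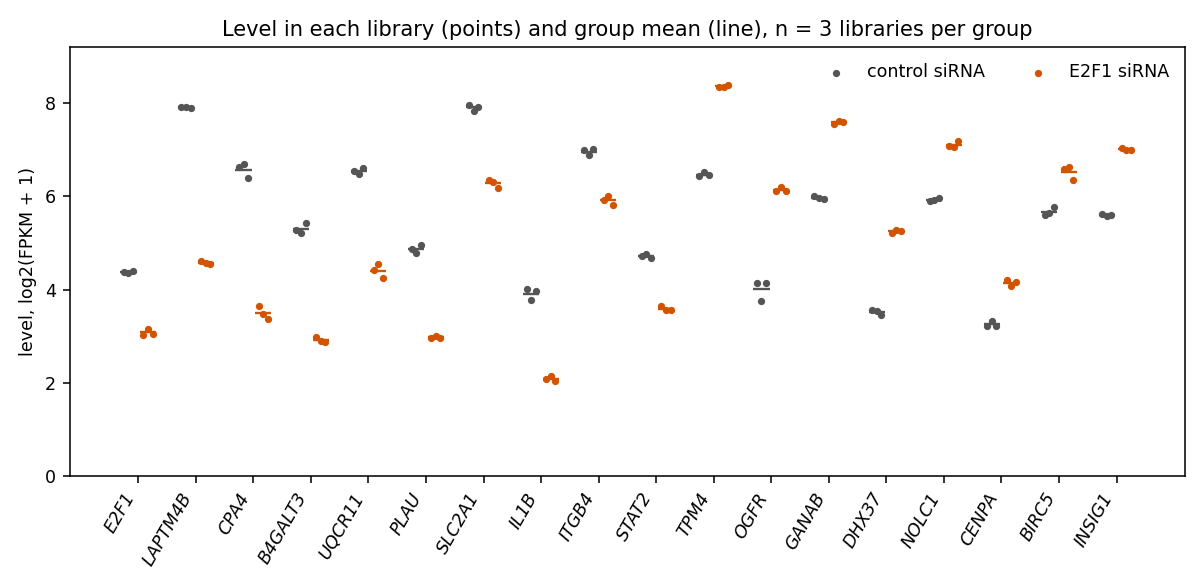
Level of 18 genes in each library (points, log2(FPKM + 1)) with the group mean as a line, n = 3 libraries per siRNA. The control and E2F1 siRNA libraries do not overlap in any of the 18 genes shown, from E2F1 and LAPTM4B, which fell, to TPM4 and INSIG1, which rose.

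A few short RNAs were listed at 0 in every E2F1 siRNA library. The 5.8S ribosomal RNA gene RNA5-8SN2, whose 4 copies on chromosome 21 carry the same value, was listed at 144, 41.1 and 183 FPKM with control siRNA, and RF02195, a short RNA on chromosome 7, at 8.33, 60.3 and 23.5 FPKM. Both were also listed at 0 in all 3 E2F3 siRNA libraries. The ribosomal protein pseudogene RPL39P3 was listed at 2558, 4678 and 3219 FPKM with control siRNA and 0 with E2F1 siRNA, and at 0, 0 and 5368 FPKM with E2F3 siRNA; it was picked out after its values were seen. These RNAs are short or have near-identical copies, so no fold is given. In all, 6 identifiers were at 5 FPKM or more in each control library and listed at 0 in each E2F1 siRNA library, and 0 showed the reverse.

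The 3' UTRs of the genes with the deepest falls shared a short sequence. In 11435 tested genes with a coding transcript in GENCODE 29 the 3' UTR of the transcript with the longest coding sequence was searched for each of the 16384 possible 7-mers on the transcript strand. The 7-mer whose share in genes that fell by at least 1 most exceeded its share in all genes was CTCACTG, in 114 of 174 such genes (65.5%). It was in 34.6% of the genes called lower, 18% of those not called, 14.3% of those called higher, 23.6% of the 72 that rose by at least 1, and 20.2% of all genes searched. The next in rank were TCACTGA (40.2% of the genes that fell by at least 1 against 13.1% of all) and TCTCACT (39.1% against 14.7%), each of which shares 6 bases with CTCACTG. The rank was drawn from the same values that it describes, so these shares are a description with no test. Of the 25 deepest falls 20 had a UTR to search, and 17 of them held CTCACTG, against 5 of the 25 largest rises.

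The windows below show the match in genes that fell and have different roles, with 11 bases on each side; capitals mark the 7-mer. They are the respiratory subunit UQCR11 (chr19:1598056-1598062, minus strand), the glycolytic enzyme PKM (chr15:72199503-72199509, minus), CPA4 (chr7:130323834-130323840, plus), the junction protein JUP (chr17:41755084-41755090, minus), the urokinase PLAU (chr10:73917381-73917387, plus), the glucose transporter SLC2A1 (chr1:42926339-42926345, minus) and the small GTPase ARF1 (chr1:228098272-228098278, plus), all in 3' UTRs in GRCh38. The last line is the copy of CTCACTG that E2F1 itself holds, in its coding sequence at base 390 (chr20:33679931-33679937, minus). Of all genes searched, 15.9% hold CTCACTG in the coding sequence, and whether the siRNA matches the copy in E2F1 is not known.
UQCR11: ttgcattaaacCTCACTGaaacctgctcc
PKM: aagatcaacgcCTCACTGaaacatggctg
CPA4: gcctggataatCTCACTGccctggcacat
JUP: ggtctgattttCTCACTGaactccaccga
PLAU: ttcatccaatcCTCACTGggtggggtgag
SLC2A1: gagcctgcaaaCTCACTGctcaagaagac
ARF1: agaaaaatcaaCTCACTGttcagtgctga
E2F1: cgctatgagacCTCACTGaatctgaccac

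The run identical to the E2F1 window reached 11 bases in UQCR11 (acCTCACTGaa), 10 in PKM (cCTCACTGaa) and 9 in JUP (CTCACTGaa), and was the 7-mer alone in CPA4, SLC2A1 and ARF1. PKM, which makes pyruvate from phosphoenolpyruvate, stood at 1298, 1284 and 1299.9 FPKM with control siRNA and 690.03, 714 and 719.72 FPKM with E2F1 siRNA (log2 -0.87, SE 0.03, adjusted p = 2.65e-06), and is the 1 gene of the 7 that fell by less than 1. JUP, also called plakoglobin, a link of desmosomes and adherens junctions to the cytoskeleton, stood at 164, 153 and 171 FPKM with control siRNA and 57.3, 61.8 and 56.5 FPKM with E2F1 siRNA (log2 -1.46, SE 0.05, adjusted p = 3.64e-06). PLAU, the urokinase that activates plasminogen, stood at 28.2, 26.8 and 30.2 FPKM with control siRNA and 6.85, 7.02 and 6.76 FPKM with E2F1 siRNA (log2 -1.9, SE 0.06, adjusted p = 2.65e-06). The groups were apart in each of these genes. ARF1, which recruits COPI coats at the Golgi, stood at 328, 321 and 322 FPKM with control siRNA and 113, 117 and 113 FPKM with E2F1 siRNA (log2 -1.5, SE 0.03, adjusted p = 3.96e-07). E2F1 holds none in its own 3' UTR, and neither does LAPTM4B, the deepest fall among coding genes. Outside the windows shown, COPZ1 also had a run of 11 bases and fell by 0.49. Runs were read only in named genes called lower, so whether a longer run goes with a deeper fall was not tested.

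Longer UTRs hold more of any 7-mer, and the genes that fell by at least 1 had longer ones, with a median of 1455 bases against 996 over all genes searched. With the genes split by UTR length into 4 groups of equal size, the share with CTCACTG was higher in the genes that fell by at least 1 than in all genes of each group. It was 27.8% against 2.41% in the shortest group, 42.5% against 8.39% in the next, 75% against 22.7% in the third and 84.6% against 47.2% in the longest. Genes with no copy had a median change of 0.06 (9128 genes, 25% higher and 15.2% lower). With 1 copy the median was -0.07 (1639 genes, 32.2% lower) with 2 copies it was -0.09 (414 genes, 34.3% lower), and with 3 or more it was -0.04 (254 genes, 24.4% lower and 20.1% higher), so the change did not grow with each further copy. CTCACTG and TCACTGA led a ranking drawn from these same changes. The splits by UTR length, number of copies and context are therefore descriptions with no test. By context of the copy, the medians were as follows. Where each copy was followed by CA, as in copies within Alu repeats, the median was 0.00 (699 genes, 21.3% lower), and where at least 1 copy was followed by another pair of bases it was -0.12 (1608 genes, 36.2% lower). Where a copy was followed by A, as in E2F1, the median was -0.21 (422 genes, 45.7% lower). In genes with no copy in the UTR, copies in the coding sequence were read in the same way: 13.4% of genes were lower with none, 23% with 1, 29.7% with 2 and 46% with 3 or more (50 genes), though coding length rose too, from a median of 1299 to 5285 bases. Whether any of these transcripts was lowered through such a match was not tested. Of the 13307 genes, 9765 held none of the 3 leading 7-mers in their 3' UTR or were not searched. Among those 9765, 2270 were called higher (23.2%) and 1300 lower (13.3%), with a median of 0.06, and the counts given below as "without the 7-mers" are for list members among these genes.

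**Figure D3:**
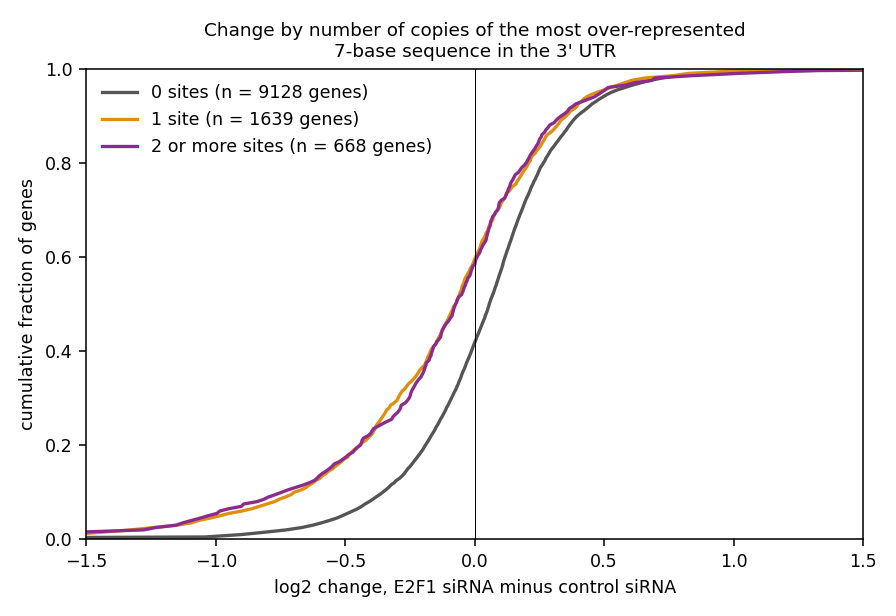
Cumulative fraction of genes (vertical axis) by log2 change (horizontal axis) for genes with 0, 1 and 2 or more copies of the leading 7-mer in the 3' UTR (9128, 1639 and 668 genes). The curves for 1 and for 2 or more copies run close together and to the left of the curve for no copies. The 7-mer was chosen from these same changes, so the curves are a description with no test.

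The E2F1 siRNA group was also compared by function, over 60 lists of genes grouped by role. Each count is read against the 21.5% of genes higher and 17.5% lower among all genes tested. These shares depend on level: of 5 groups by mean FPKM, the lowest had 6.5% higher and 10.5% lower, and the highest 34% and 20.5%. The lists were not matched for level, so lists of abundant transcripts are read against a low share. Lists with the largest share of higher members belonged to mitosis, condensin and cohesin, splicing, ribosome assembly and the proteasome, and those with the largest share of lower members to hypoxia, keratins, matrix proteins, YAP targets and cytokines.

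Genes of mitosis were more often higher than lower. The chromosomal passenger complex, which corrects the attachment of chromosomes to the spindle, was listed with the Aurora kinases, and all 7 members tested rose, with a median of 0.57. BIRC5, also called survivin, stood at 47.7, 49.1 and 53.8 FPKM with control siRNA and 95.1, 98.2 and 81.1 FPKM with E2F1 siRNA (log2 0.85, SE 0.08, adjusted p = 0.00016). INCENP, the scaffold of the complex, stood at 33.6, 32.6 and 36.2 FPKM with control siRNA and 61.9, 60.5 and 62.6 FPKM with E2F1 siRNA (log2 0.84, SE 0.05, adjusted p = 2.42e-05). AURKA, the kinase of spindle poles, stood at 82.2, 85.5 and 82.8 FPKM with control siRNA and 123, 126 and 125 FPKM with E2F1 siRNA (log2 0.57), and its activator TPX2 rose by a similar amount (log2 0.58). No value with E2F1 siRNA fell within the control range in these 4 genes. Of the 25 regulators of mitotic entry and exit 17 rose and 2 fell, with a median of 0.33 (15 and 0 of 20 without the 7-mers). Higher members included PLK1 (log2 0.64), CCNB1 (0.5), the separase inhibitor PTTG1 (0.61) and PRC1 (0.73), which bundles the microtubules of the spindle midzone. The 2 lower members were WEE1, the kinase that holds CDK1 inactive, at 94.3, 82.7 and 85.2 FPKM with control siRNA and 50.7, 50.5 and 52.5 FPKM with E2F1 siRNA (log2 -0.76), and CDK1 itself (log2 -0.2, adjusted p = 0.0275), whose call was lost in 6 of the 14 alternative settings, 4 of which left out a library.

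Of 31 proteins of the centromere and kinetochore 12 rose and 1 fell (8 and 0 of 21 without the 7-mers; median 0.18). CENPA, the histone H3 variant that marks centromeres, stood at 8.31, 9.01 and 8.32 FPKM with control siRNA and 17.4, 16 and 16.9 FPKM with E2F1 siRNA (log2 0.89, SE 0.07, adjusted p = 4.97e-05). ZW10, which brings dynein to kinetochores, stood at 4.43, 4.51 and 5.17 FPKM with control siRNA and 13.98, 13.1 and 14.5 FPKM with E2F1 siRNA (log2 1.38, SE 0.08, adjusted p = 2.24e-05). CENPF and NDC80 rose by 0.72 and 0.59. PMF1, of the MIS12 complex, was the member that fell (log2 -0.4), and the motor CENPE did not pass the test, at 5.48, 10.1 and 6.12 FPKM with control siRNA and 8.28, 7.5 and 7.98 FPKM with E2F1 siRNA. In the condensin and cohesin list 13 of 20 rose and 1 fell, led by the condensin subunit NCAPD2 (log2 0.64), while sororin, CDCA5, which holds cohesin on replicated DNA, stood at 37.7, 35.5 and 38.1 FPKM with control siRNA and 24.8, 22.3 and 24.4 FPKM with E2F1 siRNA (log2 -0.62).

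Genes that copy DNA were divided. Of 25 genes of origin licensing and the replicative helicase 14 rose and 3 fell, with a median of 0.24 (9 and 0 of 13 without the 7-mers). TIPIN, of the fork protection complex, stood at 20.5, 18.4 and 20.3 FPKM with control siRNA and 34.95, 33.7 and 35.1 FPKM with E2F1 siRNA (log2 0.78, SE 0.06, adjusted p = 5.08e-05), and ORC1 and GINS2 rose by 0.51 and 0.62. GINS1, a partner of GINS2 in the same helicase complex, moved the other way, at 15.9, 16.7 and 14.5 FPKM with control siRNA and 9.29, 8.52 and 8.06 FPKM with E2F1 siRNA (log2 -0.79, SE 0.08, adjusted p = 0.000227), as did ORC2 (log2 -0.65). Both GINS1 and ORC2 hold CTCACTG in their 3' UTR, and so do GINS2, ORC1 and TIPIN. Of 22 polymerases, clamp and clamp loader proteins 12 rose and 2 fell, among them PCNA, the sliding clamp (log2 0.37), higher, and POLD3 (log2 -0.65), lower. The 12 higher calls became 4 without E2F1 siRNA replicate 3 or control replicate 3 and 7 without control replicate 2. In deoxynucleotide synthesis, 5 of 12 genes rose and 2 fell (5 and 0 of 8 without the 7-mers). TYMS, which makes thymidylate, stood at 87.8, 98.02 and 95.2 FPKM with control siRNA and 32.5, 35.6 and 39.4 FPKM with E2F1 siRNA (log2 -1.36, SE 0.07, adjusted p = 1.73e-05), and RRM2, the regulated subunit of ribonucleotide reductase, at 129, 148 and 158 FPKM with control siRNA and 92.3, 86.3 and 91.2 FPKM with E2F1 siRNA (log2 -0.68, SE 0.07, adjusted p = 0.0003). Its partner RRM1 did not pass the test, at 267, 243 and 263 FPKM with control siRNA and 282, 274 and 274 FPKM with E2F1 siRNA (log2 0.1). In homologous recombination and Fanconi repair few members were called, 1 of 23 higher and 4 lower (3 and 2 without E2F1 siRNA replicate 2, and 1 and 2 without control replicate 1 or E2F1 siRNA replicate 3). FANCD2 and EXO1 were lower (log2 -0.31 and -0.24), and BRCA1 did not pass the test at 42.3, 42.1 and 34.5 FPKM with control siRNA and 43.5, 48.8 and 44.3 FPKM with E2F1 siRNA.

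Promoters of these genes were searched for the E2F site on both strands, written as TTTGGCGC, TTTCCCGC, TTTCGCGC or TTTGCCGC, in the window from 250 bases before to 50 after the gene start in RefSeq (GRCh38.p14). A promoter was matched for 9529 of the 11723 protein-coding genes tested (81.3%). The site was in 7.13% of promoters of genes called higher, 4.39% of those called lower and 5.28% of those not called. Over all matched genes tested the share was 5.55%. It was 3.33% over all promoters listed, which include those of genes not tested here. Among the genes in the 60 lists 80 held a match, of which 30 were called higher, 18 lower and 32 not called. Over all protein-coding genes tested 23.1% were higher and 18.4% lower. As the lists were chosen by role, these counts were not read as an effect of the site. These windows show it in genes that moved in both directions, with 10 bases on each side and the site in capitals on the strand of the gene. CDC25A (chr3:48188454-48188461, minus strand), PCNA (chr20:5126674-5126681, minus), CENPA (chr2:26785824-26785831, plus) and GINS2 (chr16:85688978-85688985, minus) were higher. TYMS (chr18:657614-657621, plus), CDCA5 (chr11:65084078-65084085, minus) and E2F1 (chr20:33686398-33686405, minus) were lower. E2F1 is the target of the siRNA and is among the 18 counted as lower. TYMS, like GINS2, also holds CTCACTG in its 3' UTR.
CDC25A: gtggattccgTTTGGCGCcaactaggaa
PCNA: agcgtcagggGCGGGAAAaggcgtgcgt
CENPA: ggcaggagaaTTTCCCGCcccatctctt
GINS2: tctcgccgtgGCGGGAAAacggcggccg
TYMS: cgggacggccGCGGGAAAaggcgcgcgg
CDCA5: ttccgcttccTTTCCCGCagggcgggta
E2F1: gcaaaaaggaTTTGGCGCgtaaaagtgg

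A match is a string of letters and was not tested for binding. The ETS site CCGGAAG, searched the same way, was in 24.7% of promoters of genes called higher, 15.3% of those called lower and 20.4% of those not called. Its share was 20.5% over all matched genes tested and 10.7% over all promoters. The E-box CACGTG gave 12.4%, 8.6% and 9.97%, against 10.3% of all matched genes tested and 7.43% of all promoters. For the AP-1 site TGANTCA the order was the other way, with 3.28% of genes called higher, 5.36% of those called lower and 4.42% of those not called. All matched genes tested held it in 4.32% of cases, against 7.76% of all promoters.

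Genes that assemble ribosomes were mostly higher, while the cytosolic ribosomal proteins were not. Of 38 genes of ribosome biogenesis and snoRNPs 24 rose and 1 fell, with a median of 0.26 (19 and 0 of 27 without the 7-mers). NOLC1, a nucleolar chaperone of snoRNPs, stood at 58.7, 59.9 and 61.7 FPKM with control siRNA and 134, 133 and 144 FPKM with E2F1 siRNA (log2 1.17, SE 0.05, adjusted p = 4.28e-06). GTPBP4 and WDR74, of large subunit assembly, rose by 0.67 and 0.66. The abundant nucleolar proteins NPM1 and NCL did not pass the test, NPM1 at 2366, 2304 and 2227 FPKM with control siRNA and 2406, 2201 and 2611 FPKM with E2F1 siRNA. Of 15 genes of RNA polymerase I and its factors 7 rose and 2 fell, with the subunit POLR1B at 23.9, 22.8 and 26.5 FPKM with control siRNA and 38.1, 38.4 and 44.8 FPKM with E2F1 siRNA (log2 0.7) and the factor UBTF higher by 0.64. Of 53 cytosolic ribosomal proteins 1 rose and 13 fell, by at most 0.41 in RPL14, with a median of -0.05. That count became 20 lower with either rescaling of the libraries and 6 or 7 without control replicate 1, control replicate 2 or E2F1 siRNA replicate 1. RPLP0 did not pass the test, at 2694, 2633 and 2587 FPKM with control siRNA and 2563, 2529 and 2542 FPKM with E2F1 siRNA. These genes have many pseudogenes, so their reads may be split between copies.

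Of 25 initiation and elongation factors 12 rose and 4 fell. EIF3B, a scaffold of the initiation factor eIF3, stood at 187, 196 and 215 FPKM with control siRNA and 318, 336 and 349 FPKM with E2F1 siRNA (log2 0.75, SE 0.06, adjusted p = 6.79e-05), and the helicase EIF4A1 at 784, 794 and 772 FPKM with control siRNA and 1100, 1079 and 1072 FPKM with E2F1 siRNA (log2 0.47). EIF2S3, a subunit of eIF2, stood lower, at 177, 183 and 179 FPKM with control siRNA and 114, 110.41 and 115 FPKM with E2F1 siRNA (log2 -0.66). The aminoacyl-tRNA synthetases, with 3 of 20 higher and 5 lower, held FARSB, a subunit of the phenylalanine enzyme, at 32.8, 33.6 and 32.8 FPKM with control siRNA and 17.1, 16.5 and 18.1 FPKM with E2F1 siRNA (log2 -0.9, SE 0.05, adjusted p = 2.31e-05). Their 3 higher calls became 1 without control replicate 2, E2F1 siRNA replicate 1 or E2F1 siRNA replicate 2, and 1 with upper quartile scaling. Of 28 SR proteins and hnRNPs that steer splicing 18 rose and 2 fell, with a median of 0.19 (17 and 1 of 24 without the 7-mers). U2AF1, which reads the 3' splice site, stood at 102, 112 and 108 FPKM with control siRNA and 158, 175 and 140 FPKM with E2F1 siRNA (log2 0.55), HNRNPM rose by 0.41 and HNRNPD by 0.36, and HNRNPC fell by 0.37. SRSF1, of the SR class, stood at 167, 179 and 173 FPKM with control siRNA and 196, 196 and 203 FPKM with E2F1 siRNA (log2 0.19). Of the 28 members, 20 had each E2F1 siRNA library above each control library and 2 had each below.

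Of 31 proteasome subunits 19 rose and 2 fell, with a median of 0.16. The base ATPase PSMC3 stood at 424, 401 and 388 FPKM with control siRNA and 616, 603 and 629 FPKM with E2F1 siRNA (log2 0.61, SE 0.04, adjusted p = 3.47e-05) and the lid subunit PSMD7 at 128, 128 and 117 FPKM with control siRNA and 190.17, 178 and 185 FPKM with E2F1 siRNA (log2 0.57, SE 0.05, adjusted p = 9.12e-05). PSMA1, a subunit of the outer ring of the same particle, stood at 324, 341 and 313 FPKM with control siRNA and 165, 163 and 174 FPKM with E2F1 siRNA (log2 -0.96, SE 0.04, adjusted p = 8.54e-06), the largest change of the list and opposite to most of it. Of 23 chaperones 11 rose and 2 fell. HSP90AA1 stood at 1074, 1146 and 1099 FPKM with control siRNA and 1644, 1765 and 1703 FPKM with E2F1 siRNA (log2 0.62), CCT5 of the chaperonin ring rose by 0.54, and the mitochondrial HSPE1 fell by 0.51.

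Chromatin regulators that methylate DNA or act with Polycomb were more often higher, with 14 of 23 risen and 1 fallen (median 0.19). TET3, which oxidises methylcytosine, stood at 3.44, 3.33 and 3.28 FPKM with control siRNA and 6.2, 6.65 and 5.82 FPKM with E2F1 siRNA (log2 0.73, SE 0.08, adjusted p = 0.00041), and RBBP4, a histone-binding subunit of several complexes, at 140.19, 143 and 137 FPKM with control siRNA and 199, 193 and 201 FPKM with E2F1 siRNA (log2 0.49). UHRF1, which brings DNMT1 to replicated DNA, was the member that fell (log2 -0.33). EZH2 and its relative EZH1 rose by 0.22 and 0.46. In the microRNA and siRNA machinery, which an siRNA uses, 2 of 13 rose and 3 fell. DROSHA, the nuclear microRNA-processing enzyme, stood at 29.8, 33.6 and 31.6 FPKM with control siRNA and 57.9, 57.6 and 56.3 FPKM with E2F1 siRNA (log2 0.84, SE 0.05, adjusted p = 2.79e-05). AGO1 and XPO5 fell by 0.50 and 0.46, and AGO2 did not pass the test, at 13.97, 15.2 and 17.9 FPKM with control siRNA and 18.4, 19.8 and 15.2 FPKM with E2F1 siRNA. Of 22 nucleoporins 5 rose and 3 fell (4 and 0 of 14 without the 7-mers), a direction that was even or turned with either rescaling.

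**Figure D4:**
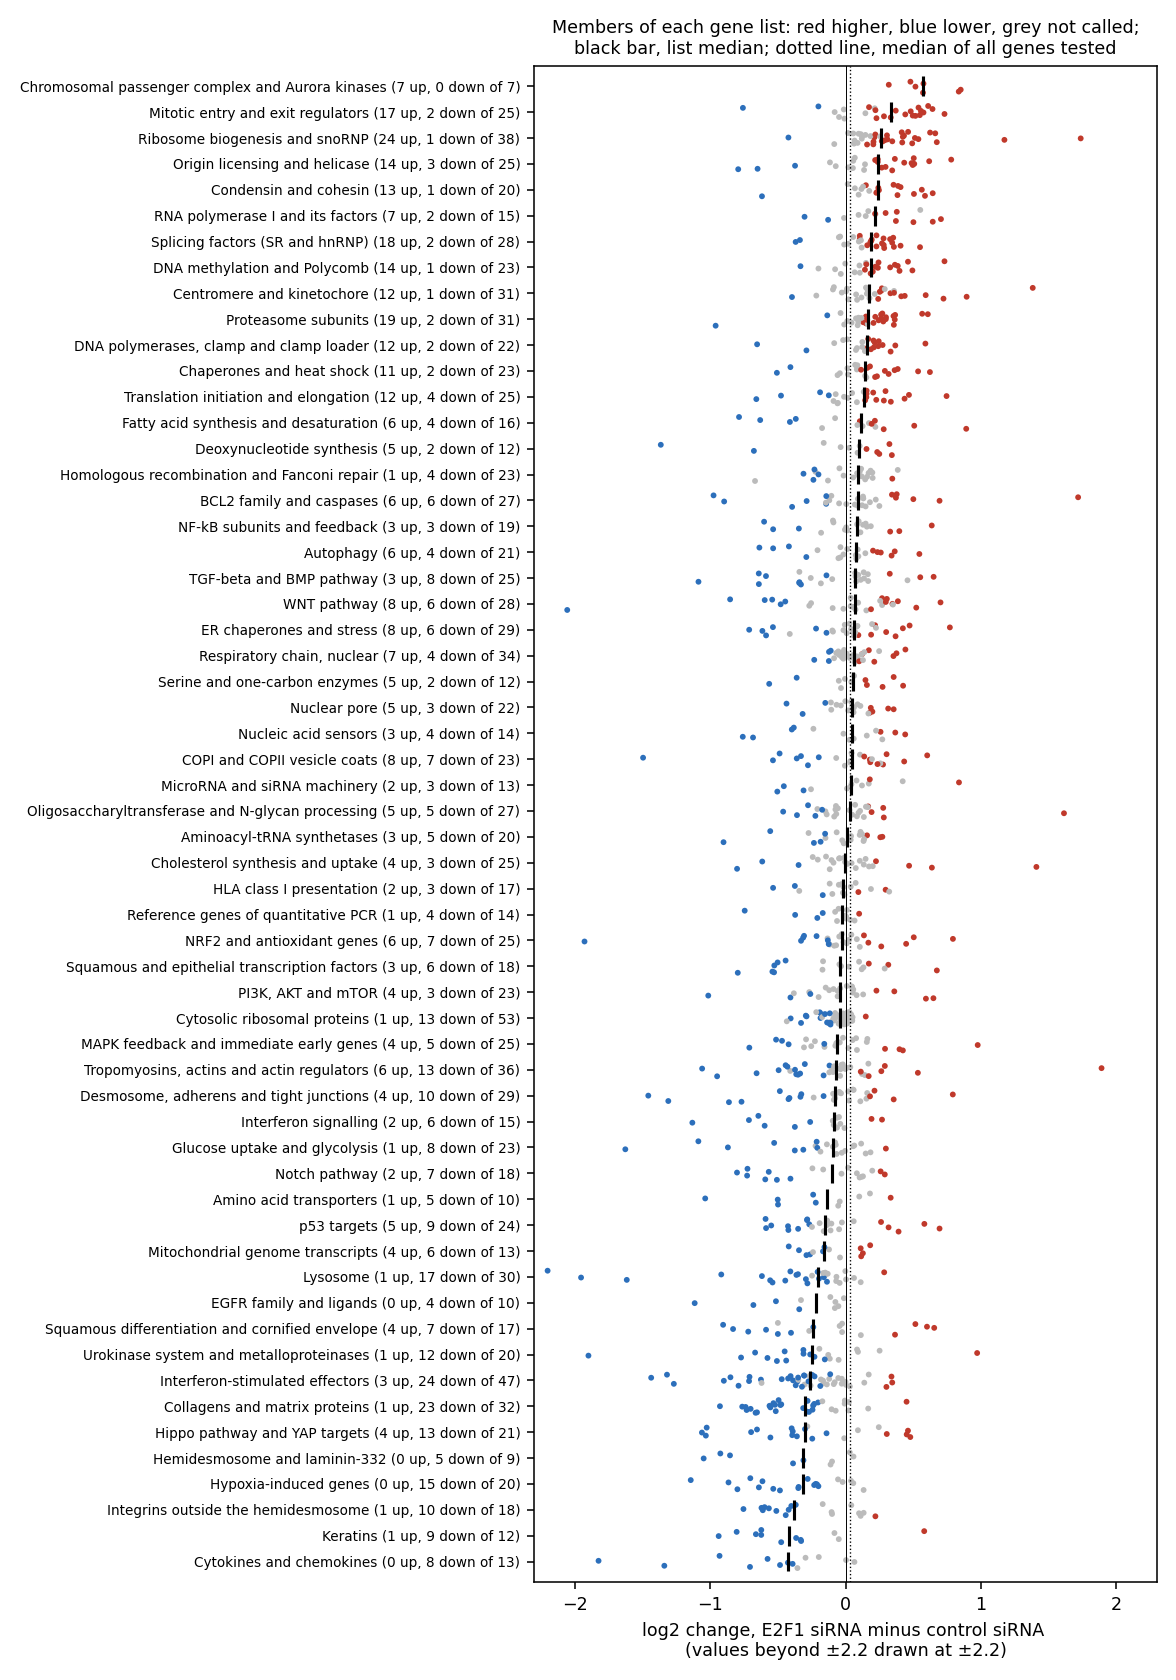
Log2 change of each member tested (points) in the lists of genes by role, ordered by their median (black bar), with the count of higher and lower members beside each name and the median of all genes as a dotted line. Lists of mitosis and ribosome assembly sit to the right of the line and keratins, integrins and cytokines to the left, with members on both sides of 0 in most lists.

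Genes induced by low oxygen were lower in 15 of 20 cases and higher in 0, with a median of -0.31 (11 of 15 lower without the 7-mers). EPAS1, which encodes the hypoxia factor HIF-2 alpha, stood at 27.8, 27.6 and 41.4 FPKM with control siRNA and 11.3, 16.5 and 13.98 FPKM with E2F1 siRNA (log2 -1.14, SE 0.18, adjusted p = 0.00191). DDIT4, an inhibitor of mTORC1, stood at 327, 310.25 and 312 FPKM with control siRNA and 199.62, 202 and 181 FPKM with E2F1 siRNA (log2 -0.7, SE 0.05, adjusted p = 4.39e-05). BNIP3L, a mitophagy receptor, stood at 46.2, 42.8 and 40.8 FPKM with control siRNA and 23.6, 24.6 and 25.2 FPKM with E2F1 siRNA (log2 -0.8). The groups were apart in these genes, although the control values of EPAS1 ranged more widely. HIF1A fell by 0.23. VEGFA did not pass the test, at 47.1, 47.5 and 45.2 FPKM with control siRNA and 51.6, 49.3 and 43.4 FPKM with E2F1 siRNA. Glucose uptake and glycolysis had 1 of 23 genes higher and 8 lower, with a median of -0.09. SLC2A1, the glucose transporter GLUT1, stood at 249, 228 and 242 FPKM with control siRNA and 80.7, 78.5 and 71.8 FPKM with E2F1 siRNA (log2 -1.63, SE 0.05, adjusted p = 2.65e-06), and SLC2A3 at 4.19, 3.42 and 3.87 FPKM with control siRNA and 0.86, 1.97 and 1.11 FPKM with E2F1 siRNA (log2 -1.09). SLC2A1, SLC2A3, PKM, ENO2 and GAPDH each hold CTCACTG in the 3' UTR, and of the 14 members without the 7-mers 1 was lower and 0 higher. With the libraries rescaled by the median ratio or the upper quartile, 13 or 14 members of the list were lower. The hexokinase gene HK1 did not pass the test, at 71.2, 72.4 and 72.2 FPKM with control siRNA and 66.3, 66.8 and 72.2 FPKM with E2F1 siRNA.

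Of 34 nuclear genes of the respiratory chain 7 rose and 4 fell, which became 4 and 4 with either rescaling and left 1 lower call without any 1 of 5 libraries. SDHB, of complex II, rose by 0.38. Of the 13 transcripts of the mitochondrial genome 6 fell and 4 rose, and the 4 rises were no longer called under either rescaling. MT-CO2, of complex IV, stood at 12547, 12269 and 12134 FPKM with control siRNA and 9686, 9113 and 8842 FPKM with E2F1 siRNA (log2 -0.42, SE 0.04, adjusted p = 0.000175), and MT-ND4 fell by 0.34.

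Lipid genes changed in both directions. INSIG1, which retains the sterol sensor SCAP in the endoplasmic reticulum, stood at 48.5, 46.6 and 47.6 FPKM with control siRNA and 131, 127 and 126 FPKM with E2F1 siRNA (log2 1.41, SE 0.04, adjusted p = 1.28e-06). SREBF2, the sterol-responsive factor that SCAP escorts, stood at 30.8, 33.2 and 29.3 FPKM with control siRNA and 19.8, 20.7 and 19.3 FPKM with E2F1 siRNA (log2 -0.62, SE 0.06, adjusted p = 0.000222), and MSMO1, of cholesterol synthesis, at 74.5, 69.99 and 65.8 FPKM with control siRNA and 41.2, 37.6 and 40.6 FPKM with E2F1 siRNA (log2 -0.8). In all, 4 of 25 genes of cholesterol synthesis and uptake rose and 3 fell (3 and 0 of 16 without the 7-mers). In fatty acid synthesis 6 of 16 rose and 4 fell (4 and 4 with either rescaling, and 4 and 1 of 9 without the 7-mers). ME1, malic enzyme, stood at 16.8, 17.1 and 15.8 FPKM with control siRNA and 32.4, 29.4 and 32.9 FPKM with E2F1 siRNA (log2 0.89), and SREBF1 was higher by 0.51. The elongase ELOVL6 stood at 25.9, 22.6 and 29.1 FPKM with control siRNA and 14.3, 13.6 and 15.5 FPKM with E2F1 siRNA (log2 -0.79). Of 12 serine and one-carbon enzymes 5 rose and 2 fell (3 and 0 of 4 without the 7-mers). PHGDH, the entry enzyme of serine synthesis, stood at 169, 165 and 169 FPKM with control siRNA and 111, 109.92 and 118 FPKM with E2F1 siRNA (log2 -0.56), while the cytosolic SHMT1 rose by 0.42 and the mitochondrial SHMT2 fell by 0.36. The 5 rises became 2 without E2F1 siRNA replicate 3. Of 10 amino acid transporters 1 rose and 5 fell. SLC7A5 and SLC3A2, the chains of the large neutral amino acid transporter, fell together, SLC7A5 at 316, 314 and 327 FPKM with control siRNA and 152, 160.47 and 152 FPKM with E2F1 siRNA (log2 -1.04, SE 0.04, adjusted p = 2.81e-06) and SLC3A2 by 0.50. SLC7A11, the cystine carrier, did not pass the test, at 24.9, 26.7 and 24.5 FPKM with control siRNA and 25.3, 24.8 and 23.7 FPKM with E2F1 siRNA. NRF2 and antioxidant genes were split, 6 of 25 higher and 7 lower (5 and 10 with either rescaling). Beside the fall of HMOX1, AKR1C1 rose, at 6.02, 5.16 and 5.58 FPKM with control siRNA and 10.95, 10.04 and 10.2 FPKM with E2F1 siRNA (log2 0.79). NQO1 did not pass the test, at 189, 199 and 205 FPKM with control siRNA and 200.48, 195 and 200.33 FPKM with E2F1 siRNA.

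Genes of the lysosome were lower in 17 of 30 cases and higher in 1, with a median of -0.20 (10 lower and 1 higher of 22 without the 7-mers). Beside LAPTM4B, OSTM1, a partner of the lysosomal chloride transporter, stood at 11.4, 11.1 and 10.9 FPKM with control siRNA and 2.29, 2.56 and 1.62 FPKM with E2F1 siRNA (log2 -1.95, SE 0.12, adjusted p = 2.70e-05). SCARB2, the receptor that carries glucocerebrosidase to lysosomes, stood at 27.1, 29.5 and 27.5 FPKM with control siRNA and 15.02, 12.98 and 15.2 FPKM with E2F1 siRNA (log2 -0.92). The abundant membrane protein LAMP2 did not pass the test, at 34.6, 35.3 and 33.6 FPKM with control siRNA and 31.7, 29.96 and 32.6 FPKM with E2F1 siRNA. Of 21 autophagy genes 6 rose and 4 fell (4 and 4 by the upper quartile), with WIPI2 higher by 0.54 and ATG16L1 lower by 0.64. Of 23 genes of COPI and COPII coats 8 rose and 7 fell (5 and 7 with either rescaling). SEC13 stood at 63.1, 63.9 and 64.6 FPKM with control siRNA and 93.9, 97.6 and 101 FPKM with E2F1 siRNA (log2 0.6) and SEC23A, of the same COPII coat, at 67.04, 63.8 and 63.5 FPKM with control siRNA and 46.6, 43.2 and 43.3 FPKM with E2F1 siRNA (log2 -0.54).

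In the endoplasmic reticulum, 5 of 27 genes of N-glycan transfer and trimming rose and 5 fell (3 and 3 without control replicate 1, and 4 and 3 without control replicate 3 or E2F1 siRNA replicate 3). RPN2, a subunit of the oligosaccharyltransferase, fell by 0.17 and its partner RPN1 did not pass the test, at 179, 173 and 171 FPKM with control siRNA and 188, 176 and 185 FPKM with E2F1 siRNA. Of 29 chaperones and stress genes of this compartment 8 rose and 6 fell (6 and 7 with either rescaling). HSPA5, also called BiP and the usual gauge of the unfolded protein response, did not pass the test, at 285, 285 and 285 FPKM with control siRNA and 289, 273 and 289.88 FPKM with E2F1 siRNA (log2 -0.01). TRIB3 and ATF3, genes of the integrated stress response, were higher, TRIB3 at 18.8, 18.5 and 18.6 FPKM with control siRNA and 33.97, 32.5 and 31.1 FPKM with E2F1 siRNA (log2 0.77, SE 0.05, adjusted p = 3.57e-05) and ATF3 by 0.42. The sensor kinase EIF2AK3, also called PERK, and the chaperone HYOU1 fell by 0.61 and 0.71. DDIT3 did not pass the test, at 86.6, 76.7 and 76.2 FPKM with control siRNA and 101, 86.9 and 87.3 FPKM with E2F1 siRNA.

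Among keratins and the genes that hold the epithelial cell to its base, more were lower than higher. Of 12 keratins tested 9 fell and 1 rose, with a median of -0.42 (8 and 1 of 11 without the 7-mers). KRT17 stood at 751, 740.17 and 809.66 FPKM with control siRNA and 388, 387 and 426 FPKM with E2F1 siRNA (log2 -0.94, SE 0.05, adjusted p = 1.71e-05), KRT7 at 279, 295 and 302 FPKM with control siRNA and 184, 196 and 189 FPKM with E2F1 siRNA (log2 -0.62, SE 0.04, adjusted p = 3.73e-05), and KRT5 and KRT14, the pair of the basal layer, fell by 0.37 and 0.66. KRT16 was the member that rose, at 8.27, 7.5 and 9.29 FPKM with control siRNA and 13.6, 13.3 and 12.1 FPKM with E2F1 siRNA (log2 0.58). Keratin genes have close relatives and pseudogenes, so reads may be split between them. In the hemidesmosome, which anchors basal cells to laminin, 5 of 9 fell and 0 rose. Its integrin chains ITGB4 and ITGA6 stood at 126, 117 and 129 FPKM with control siRNA and 59.5, 63.3 and 55.8 FPKM with E2F1 siRNA (log2 -1.05, SE 0.06, adjusted p = 1.81e-05) and at 72.1, 77.2 and 75.1 FPKM with control siRNA and 39.4, 38.1 and 39.3 FPKM with E2F1 siRNA (log2 -0.92, SE 0.04, adjusted p = 9.77e-06), and LAMB3, a chain of laminin-332, at 132, 129 and 132 FPKM with control siRNA and 71.1, 73.5 and 71.8 FPKM with E2F1 siRNA (log2 -0.85). Of the 8 members with a UTR to search 0 held CTCACTG. Of 18 other integrins and adhesion proteins 10 fell and 1 rose (6 and 1 without the 7-mers), with ITGAV lower by 0.75, the adaptor PXN by 0.62 and ITGB1 not past the test at 79.7, 83.2 and 79.4 FPKM with control siRNA and 76.4, 73.5 and 75.98 FPKM with E2F1 siRNA.

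The matrix and the enzymes that remodel it followed the same direction. Of 32 collagens and matrix proteins 23 fell and 1 rose, with a median of -0.30 (14 and 0 of 21 without the 7-mers). FN1, fibronectin, stood at 53.7, 48.8 and 55.4 FPKM with control siRNA and 26.5, 28.1 and 26.9 FPKM with E2F1 siRNA (log2 -0.93, SE 0.06, adjusted p = 2.73e-05), and the crosslinking enzymes LOX and LOXL2 fell by 0.73 and 0.74. COL4A1, of basement membranes, stood at 9.56, 10.01 and 9.9 FPKM with control siRNA and 5.45, 5.33 and 5.35 FPKM with E2F1 siRNA (log2 -0.76), and COL1A1, of fibrillar collagen, was the member that rose, at 12.5, 13.5 and 12.3 FPKM with control siRNA and 18.5, 18.7 and 16.4 FPKM with E2F1 siRNA (log2 0.45). Of 20 genes of the urokinase system and metalloproteinases 12 fell and 1 rose. Beside PLAU, its receptor PLAUR fell by 0.44. ADAM15 was the gene that rose, at 36.9, 37.2 and 35.8 FPKM with control siRNA and 74.2, 71.1 and 72.96 FPKM with E2F1 siRNA (log2 0.97, SE 0.04, adjusted p = 5.69e-06).

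Cell junctions were mixed. Of 29 genes of desmosomes, adherens and tight junctions 10 fell and 4 rose, and among the 14 without the 7-mers 3 fell and 3 rose. The 4 rises became 2 without control replicate 1, control replicate 2 or E2F1 siRNA replicate 1. CDH1, E-cadherin, stood at 28.5, 29.4 and 28.5 FPKM with control siRNA and 16.03, 15.9 and 14.3 FPKM with E2F1 siRNA (log2 -0.86, SE 0.06, adjusted p = 4.08e-05), and CLDN4, of tight junctions, at 25.1, 23.04 and 22.6 FPKM with control siRNA and 9.17, 9.57 and 8.05 FPKM with E2F1 siRNA (log2 -1.31, SE 0.08, adjusted p = 2.42e-05). PERP, of desmosomes, rose by 0.79. CTNNB1 did not pass the test, at 162, 157 and 165 FPKM with control siRNA and 174, 169 and 162 FPKM with E2F1 siRNA (log2 0.06). Of 17 genes of squamous differentiation 7 fell and 4 rose. SCEL, FLG and TGM1, of the cornified envelope, fell by 0.90, 0.83 and 0.72 from low levels, FLG standing at 2.12, 2.03 and 2.26 FPKM with control siRNA and 0.79, 0.8 and 0.7 FPKM with E2F1 siRNA. LY6D rose, at 54.6, 52.4 and 50.6 FPKM with control siRNA and 91.5, 86.7 and 72.7 FPKM with E2F1 siRNA (log2 0.65). Among 18 transcription factors of squamous and other epithelia 6 fell and 3 rose. TP63, the master factor of basal cells, stood at 48.1, 44.5 and 47.5 FPKM with control siRNA and 33.6, 32.9 and 29.8 FPKM with E2F1 siRNA (log2 -0.53, SE 0.06, adjusted p = 0.000405), KLF4 fell by 0.54, and SOX2 stood at 1.65, 2.15 and 2.03 FPKM with control siRNA and 3.6, 3.77 and 3.68 FPKM with E2F1 siRNA (log2 0.67). In the actin cytoskeleton 13 of 36 genes fell and 6 rose. MYH9, the heavy chain of non-muscle myosin, stood at 75.1, 74.8 and 78.6 FPKM with control siRNA and 34.95, 35.9 and 37.3 FPKM with E2F1 siRNA (log2 -1.06, SE 0.04, adjusted p = 5.69e-06), ACTG1 fell by 0.66, and ACTB did not pass the test, at 2846, 2769.9 and 2898 FPKM with control siRNA and 2662, 2824 and 2664 FPKM with E2F1 siRNA. DIAPH1, a formin that extends actin filaments, rose by 0.53 beside TPM4.

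Of 21 genes of the Hippo pathway and its YAP targets 13 fell and 4 rose, with a median of -0.30 (5 and 2 of 9 without the 7-mers). The targets ANKRD1 and AXL stood at 12.7, 12.95 and 11.95 FPKM with control siRNA and 6.05, 5.01 and 5.92 FPKM with E2F1 siRNA (log2 -1.03, SE 0.08, adjusted p = 8.90e-05) and at 33.6, 33.5 and 34.2 FPKM with control siRNA and 16.2, 14.98 and 15.9 FPKM with E2F1 siRNA (log2 -1.06, SE 0.05, adjusted p = 1.06e-05), and AMOTL2 fell by 1.03. The coactivator YAP1 itself rose, at 88.2, 84.8 and 82.6 FPKM with control siRNA and 106, 106 and 104 FPKM with E2F1 siRNA (log2 0.3). Of its DNA-binding partners TEAD4 rose by 0.48 and TEAD3 fell by 0.70. In the EGFR family and its ligands 4 of 10 fell and 0 rose. EGFR stood at 86.5, 86.7 and 87.01 FPKM with control siRNA and 62.9, 63.4 and 55.3 FPKM with E2F1 siRNA (log2 -0.51, SE 0.06, adjusted p = 0.000357), the ligands NRG1 and AREG fell by 0.68 and 0.34, and the feedback inhibitor ERRFI1 stood at 50.4, 45.03 and 47.1 FPKM with control siRNA and 23.6, 20.1 and 20.6 FPKM with E2F1 siRNA (log2 -1.11, SE 0.07, adjusted p = 3.29e-05). ERBB2 did not pass the test. Among feedback and immediate early genes of the MAPK pathway 4 of 25 rose and 5 fell (3 fell without control replicate 1), with SPRY2 lower by 0.71, IER2 higher, at 21.5, 19.3 and 22.2 FPKM with control siRNA and 45.99, 42.8 and 38 FPKM with E2F1 siRNA (log2 0.98), and FOS and JUN not past the test.

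Other signalling lists held changes in both directions. TGFBR2 and TGFBR1, the receptor chains for TGF-beta, moved apart, TGFBR2 at 25.6, 25.5 and 26.5 FPKM with control siRNA and 12.5, 11.6 and 10.9 FPKM with E2F1 siRNA (log2 -1.09, SE 0.06, adjusted p = 2.24e-05) and TGFBR1 at 3.64, 3.38 and 4.26 FPKM with control siRNA and 7.3, 6.15 and 5.96 FPKM with E2F1 siRNA (log2 0.65, SE 0.11, adjusted p = 0.00259). In that list 3 of 25 rose (5 without E2F1 siRNA replicate 1) and 8 fell. In the Notch list 2 of 18 rose and 7 fell. The ligand JAG1, the receptor NOTCH2 and the target HES1 fell by 0.73, 0.59 and 0.72, while NOTCH1 rose, at 26.1, 25.5 and 26.1 FPKM with control siRNA and 31.9, 34.2 and 29.6 FPKM with E2F1 siRNA (log2 0.29). In the WNT list 8 of 28 rose and 6 fell, a direction that turned or was even with either rescaling and without 5 of the 6 libraries. The secreted inhibitor DKK1 stood at 85.5, 84.6 and 88.8 FPKM with control siRNA and 48.6, 44.9 and 48.6 FPKM with E2F1 siRNA (log2 -0.85) and the scaffold AXIN1 rose by 0.70. The kinase AKT1 stood at 85.6, 89.4 and 85.6 FPKM with control siRNA and 132, 131 and 132 FPKM with E2F1 siRNA (log2 0.59, SE 0.04, adjusted p = 2.41e-05). In the list of PI3K, AKT and mTOR 4 of 23 rose and 3 fell (3 and 4 with either rescaling), and MTOR did not pass the test.

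Among 27 BCL2 family members and caspases 6 rose and 6 fell. The BH3-only gene BBC3, also called PUMA, stood at 4.61, 3.77 and 4.74 FPKM with control siRNA and 7.75, 7.77 and 7.47 FPKM with E2F1 siRNA (log2 0.69), and BMF, of the same class, at 17.1, 15.9 and 14.2 FPKM with control siRNA and 8.84, 9.22 and 6.14 FPKM with E2F1 siRNA (log2 -0.9). Of 24 p53 targets 5 rose and 9 fell (5 and 5 with no filter on level). CDKN1A, the p21 inhibitor of cyclin-dependent kinases, stood at 100, 96.97 and 97 FPKM with control siRNA and 68.9, 69.6 and 61.8 FPKM with E2F1 siRNA (log2 -0.55, SE 0.05, adjusted p = 0.000185), SESN2 fell by 0.59, XPC rose by 0.58 and MDM2 did not pass the test, at 24.8, 27.3 and 26.4 FPKM with control siRNA and 26.1, 22.4 and 27.6 FPKM with E2F1 siRNA.

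Interferon-stimulated genes were lower more often than higher. Of 47 effectors 24 fell and 3 rose, with a median of -0.27 (17 and 3 of 34 without the 7-mers). DDX60, a helicase of antiviral defence, stood at 33.2, 29.5 and 36.5 FPKM with control siRNA and 13.02, 12.1 and 14.2 FPKM with E2F1 siRNA (log2 -1.27, SE 0.09, adjusted p = 4.50e-05). GBP1 and GBP3, guanylate-binding proteins, stood at 9.97, 9.87 and 9.87 FPKM with control siRNA and 3.49, 2.41 and 3.28 FPKM with E2F1 siRNA (log2 -1.44, SE 0.11, adjusted p = 7.31e-05) and at 16.5, 15.2 and 14.1 FPKM with control siRNA and 5.21, 5.27 and 6.12 FPKM with E2F1 siRNA (log2 -1.32, SE 0.09, adjusted p = 3.49e-05), and both hold CTCACTG in the 3' UTR. IFIT1 fell by 0.39, IFI16 rose by 0.34, and MX1 was low throughout and did not pass the test, at 1.19, 0.96 and 1.55 FPKM with control siRNA and 1.6, 1.09 and 0.8 FPKM with E2F1 siRNA. Upstream, STAT2 and IRF9, subunits of the factor ISGF3, stood at 25.6, 26.2 and 24.5 FPKM with control siRNA and 11.6, 10.8 and 10.8 FPKM with E2F1 siRNA (log2 -1.13, SE 0.06, adjusted p = 1.32e-05) and at 12.2, 16.2 and 13.97 FPKM with control siRNA and 8.53, 9.59 and 7.83 FPKM with E2F1 siRNA (log2 -0.64, SE 0.11, adjusted p = 0.00311). In the list of 15 interferon signalling genes 6 fell and 2 rose, and the rises became 1 or 0 without any 1 library but control replicate 1. Of 14 nucleic acid sensors and their adaptors 3 rose and 4 fell. The RNA sensor DDX58, also called RIG-I, stood at 36.6, 36.5 and 35.1 FPKM with control siRNA and 22.4, 18.99 and 21.4 FPKM with E2F1 siRNA (log2 -0.76) and TLR3 fell by 0.68, while IFIH1 did not pass the test and the kinase TBK1 rose by 0.37.

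Of 13 cytokines and chemokines tested 8 fell and 0 rose, with a median of -0.43 (4 of 7 lower without the 7-mers). IL1B stood at 15.1, 12.7 and 14.6 FPKM with control siRNA and 3.25, 3.46 and 3.1 FPKM with E2F1 siRNA (log2 -1.82, SE 0.09, adjusted p = 1.03e-05), IL6 at 13.6, 13.7 and 18.8 FPKM with control siRNA and 5.82, 5.54 and 4.88 FPKM with E2F1 siRNA (log2 -1.34, SE 0.13, adjusted p = 0.000193) and IL1A at 21.8, 19.2 and 20.4 FPKM with control siRNA and 11.5, 9.16 and 10.2 FPKM with E2F1 siRNA (log2 -0.93, SE 0.09, adjusted p = 0.000186). The control and E2F1 siRNA libraries were apart in each. Of 19 NF-kB subunits and feedback genes 3 rose and 3 fell. RELA and NFKB1 did not pass the test, RELA at 80.96, 76.4 and 85.2 FPKM with control siRNA and 88.6, 91.5 and 81.9 FPKM with E2F1 siRNA, and the targets TNFAIP3 and ICAM1 fell by 0.53 and 0.60. In HLA class I presentation 2 of 17 rose and 3 fell, and the rises became 1 or 0 without any 1 library but E2F1 siRNA replicate 2. HLA-B stood at 39.1, 37.97 and 42.1 FPKM with control siRNA and 30.5, 29.3 and 31.4 FPKM with E2F1 siRNA (log2 -0.37). HLA genes are close in sequence and differ between people and the reference, so their reads may be split or lost.

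Reference genes used to scale quantitative PCR were not all steady. Of 14 tested 4 fell and 1 rose (6 and 0 with either rescaling). TFRC, the transferrin receptor, stood at 104, 112 and 112 FPKM with control siRNA and 62.5, 64.4 and 67.3 FPKM with E2F1 siRNA (log2 -0.74, SE 0.05, adjusted p = 2.81e-05) and GAPDH at 6739.7, 6295 and 6631 FPKM with control siRNA and 5698, 5652 and 5659 FPKM with E2F1 siRNA (log2 -0.21), which was no longer called when genes of all levels were tested. ACTB and RPLP0, named above, did not pass the test.

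Calls differed by kind of gene and by chromosome. Among protein-coding genes 23.1% were higher and 18.4% lower, against 9.34% and 13.7% of lincRNAs and 8.58% and 10.2% of antisense genes, which lie at lower levels. With the genes split by mean FPKM into 5 groups of equal size, 6.5% were higher and 10.5% lower in the lowest group, and 34% and 20.5% in the highest. The share of higher genes was largest on chromosome 19, at 29.9% with 10.1% lower (922 genes), and smallest on chromosome 2, at 15.1% with 18.4% lower. Genes with a ZNF symbol, most of which encode zinc finger proteins, were higher in 38.2% and lower in 4.24% of 165 cases on chromosome 19, and in 36.9% and 3.74% of 214 cases on other chromosomes (medians 0.23 and 0.23). The other 757 genes of chromosome 19 were higher in 28.1% and lower in 11.4% of cases. ZNF genes are close in sequence, so reads may be split between them.

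**Figure D5:**
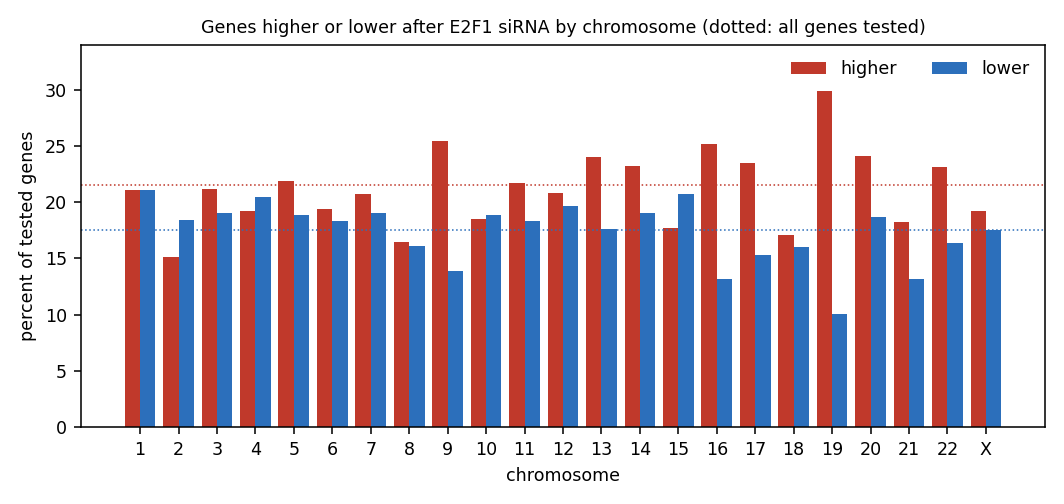
Percent of tested genes called higher (red) and lower (blue) after E2F1 siRNA on each chromosome, with the percentages over all 13307 genes as dotted lines. Chromosome 19 has the highest red bar, at 29.9%, and the lowest blue bar, at 10.1%.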

How the data were processed

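The 6 libraries with control siRNA or E2F1 siRNA, of 9 sequenced, were analysed. RNA extraction used a mirVana kit, per the labels' protocols. The tools named, with build GRCh38 and no version, role or order, are HISAT2, TopHat, Trimmomatic, DESeq and HTSeq, per the submitters' processing notes. The authors deposited FPKM per gene, per the file headers. As these are not counts, log2(FPKM + 1) of genes at 1 FPKM or more in 3 of the 6 libraries was tested with limma 3.58.1 (R 4.3.3, trend, not robust, group means, threshold 0.05), tested on simulated data: it recovered 26% of genes changed 1.25-fold and 96% changed 2-fold, and 8 of 155 calls were unchanged genes. The simulation changed far fewer genes than were called here, all of them at about 5 FPKM or more with control siRNA. Its rates therefore need not hold for this comparison or for genes at lower levels. Sequences were searched in Python 3.11.15. The comparison, its lists and the rule for named genes (the 10 largest rises and falls above 5 FPKM, strongest members of each list, and preset reference members) were chosen with earlier results of these data known. Some genes are not reported here.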

Additional observations from a re-analysis of the deposited data

Results flagged for a closer look

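Besides genes with an identifier, the deposited values cover assembled loci that have none and entered no comparison. Of 602 such loci at 1 FPKM or more in at least 3 of the 6 libraries, 122 (20.3%) had all 3 E2F1 siRNA libraries above all 3 control libraries, and 101 (16.8%) had them all below. Among the genes tested these shares were 28.4% and 22.9%. The loci were picked out because they lie outside the main measurement, and no test was run on them.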

How the results depend on the processing

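Leaving out 1 library at a time gave 4279 to 4555 called genes, 2348 to 2487 of them higher and 1880 to 2088 lower, against 5193, 2858 and 2335. An adjusted p under 0.01 left 3292 genes, 1770 higher and 1522 lower. Adding a log2 change of at least 1 left 277 genes, 83 higher and 194 lower. Rescaling by the median ratio gave 2434 higher and 2644 lower genes, and by the upper quartile 2369 and 2684, so which direction prevails among all genes depends on the scaling. Correlations of deviations between libraries with the same replicate number were -0.049, 0.012 and -0.06, so no effect shared by equal numbers was visible. Whether equal numbers mark a shared culture or day is not given by the labels. The fit with the replicate block gave 4515 calls, 2455 higher and 2060 lower. No filter on level gave 4116 calls of 28593 genes. Of 309 named genes that were called, 272 kept their call in each alternative that tested them, and none of the 356 changed sign past the threshold. Most were tested in 14 alternatives. Some genes at low levels, such as FLG, were tested in 13, as the filter of 5 FPKM left them out. The depth limits genes with low levels most. Small fold changes were often missed on simulated data, which held far fewer changed genes than were called here.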
